A study of Mus musculus with 8 samples.

Results

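The 8 genes described here carry the signal of the B cell antigen receptor from the cell membrane to calcium and phosphoinositide signalling: Blk, Lyn, Syk, Blnk, Plcg2, Pik3ap1, Bank1 and Dapp1. They were chosen by name, for their role in this pathway, from 21755 protein-coding genes on the autosomes and X of the GENCODE M21 annotation (GRCm38). No methylation value enters the rule, but the choice was made with earlier results of these data known. For each gene, the body and 10 kb to either side were examined at the CpGs that had 5 or more reads in all 4 files, 9684 CpGs in total. Methylation had been measured by whole-genome bisulfite sequencing, which converts unmethylated cytosines and leaves methylated and hydroxymethylated ones as they are, so that the level of a CpG, the percentage of its reads left unconverted, counts both marks together.

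The 8 samples were spleen cells of inbred C57BL/6J mice aged 6 to 8 weeks, with no treatment named in the labels. They fell into 4 groups of 2 by sex and cell type, which were resting (CD43-) B cells of females and of males and naive CD4+CD62L+ T cells (sorted as CD62Lhi, CD44lo and CD25-) of females and of males, and the study pooled several animals per sample. Each group had 1 file, which may stand for both of its samples or for a single one, since the sources do not say. There was therefore no replicate within a group, and a B cell against T cell difference was seen once in females and once in males.

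As background, binding of antigen lets the Src-family kinases Lyn and Blk phosphorylate the receptor tails, and the kinase Syk docks there and becomes active. Syk phosphorylates Blnk (also called SLP-65), the adaptor that brings phospholipase C gamma 2, the product of Plcg2, to its lipid substrate. Pik3ap1 (BCAP) couples the receptor to phosphoinositide 3-kinase, Dapp1 (Bam32) is an adaptor that binds the lipids this kinase makes, and Bank1 is a scaffold that binds Lyn. T cells run a parallel pathway with their own set of proteins (Lck, Zap70, Lcp2, Plcg1, Lat). Low methylation at enhancers within introns, and at some promoters, often marks regulatory elements in use in a cell type, but does not by itself show use.

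In females, B cells first, and then in males, the autosomal CpGs of the B and T cell files held 278275973, 339923001, 309917919 and 333249103 reads, with mean depths of 14.6, 17.7, 16.1 and 17.3 reads and levels over all autosomal CpGs of 80.7%, 79.5%, 79.7% and 79.6%. The labels held at the defining markers of both cell types. The promoter of Cd79a, which encodes a signalling chain of the B cell receptor, was at 10.5%, 83.4%, 17.0% and 79.3% in this order of files and that of Cd3e at 83.4%, 3.45%, 86.6% and 1.87%. All 5 B cell marker promoters were called lower in B cells and 5 of 6 T cell marker promoters higher, and both CD8 marker promoters, Cd8a and Cd8b1, were also higher in B cells. None of the promoters of 6 myeloid, 2 NK cell, 2 plasma cell and 2 erythroid markers was called. That of the myeloid marker Lyz2 came close, at 41.5%, 64.1%, 50.7% and 66.7%. Its mean B cell minus T cell difference of -19.3 points fell short of the size set for a call (adjusted p = 0.0436, quasi-binomial model). The other myeloid promoters differed by -3.39 (Csf1r), -2.47 (Csf3r), 3.36 (Cd14), 4.41 (Fcer1g) and 4.79 points (Itgam). The 1 kb windows of these lists of markers did hold calls. Myeloid markers had 8 of 229 windows lower and 6 higher in B cells, NK cell markers 5 of 53 lower (9.43%) and 0 higher, plasma cell markers 3 of 149 lower and 10 higher (6.71%), and erythroid markers 1 of 47 lower and 0 higher, where 0.913% of all windows were lower and 1.16% higher. All 5 NK cell marker windows lower in B cells were in Klrb1c. Syk, Lyn, Plcg2 and Pik3ap1 are also used by myeloid cells. The part of other cell types in the results was not tested, and a level between 0% and 100% does not say whether all cells or some cells of a sample were methylated.

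Levels below are methylated reads over all reads of a region, always given in the order B cells then T cells of females, followed by B cells then T cells of males. Differences are B cell minus T cell levels in percentage points. Cell type and sex were the terms of a quasi-binomial model of methylated and unmethylated reads, fitted to all regions of a kind with Benjamini-Hochberg adjustment over all of them, and a region was called at an adjusted p under 0.05 with a mean difference of at least 20 points for promoters and 1 kb windows and 10 points for introns and flanks.

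Of the 923 windows of 1 kb that could be tested in and around the 8 genes, 96 were lower in B cells (10.4%) and 5 were higher (0.542%). Among all 2018320 windows tested, 0.913% were lower in B cells and 1.16% were higher. Each of the 8 genes held windows lower in B cells, from 3 of 71 in Dapp1 to 16 of 84 in Blnk. All 101 called windows had the same sign in females and males, and in each of the 96 both B cell files lay below both T cell files. A call on the mean of both sexes favours such an order, so this describes the called windows and is no separate test. In these 96 windows the level had a median of 46.4% (range 2.90% to 75.8%) in the female B cell file and 44.4% (2.68% to 78.8%) in the male B cell file. The T cell files had medians of 85.4% (23.5% to 100%) and 87.2% (23.3% to 100%). The 822 windows not called had medians between 92.7% and 94.2% in the 4 files. Their median difference was -0.71 points, with 333 below 0 and 204 above 0 in both sexes. Over all windows tested, called or not, the median difference was 0.05 points. Matching counts over all windows not called are not given here, so the 333 and 204 are not shown to be particular to these genes. The members nearest the 20-point threshold were a Syk window at -20.2 points, inside, and a Dapp1 window at -20.0 points, outside. Called windows held between 26 and 646 reads per file. The number called changed with the model, to 53 by limma on log2 ratios and, with the dispersion prior from all features, to 31 or 0 depending on the bound set on the fitted log-odds. The shares of all windows called under these models are not given here.

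**Figure D1:**
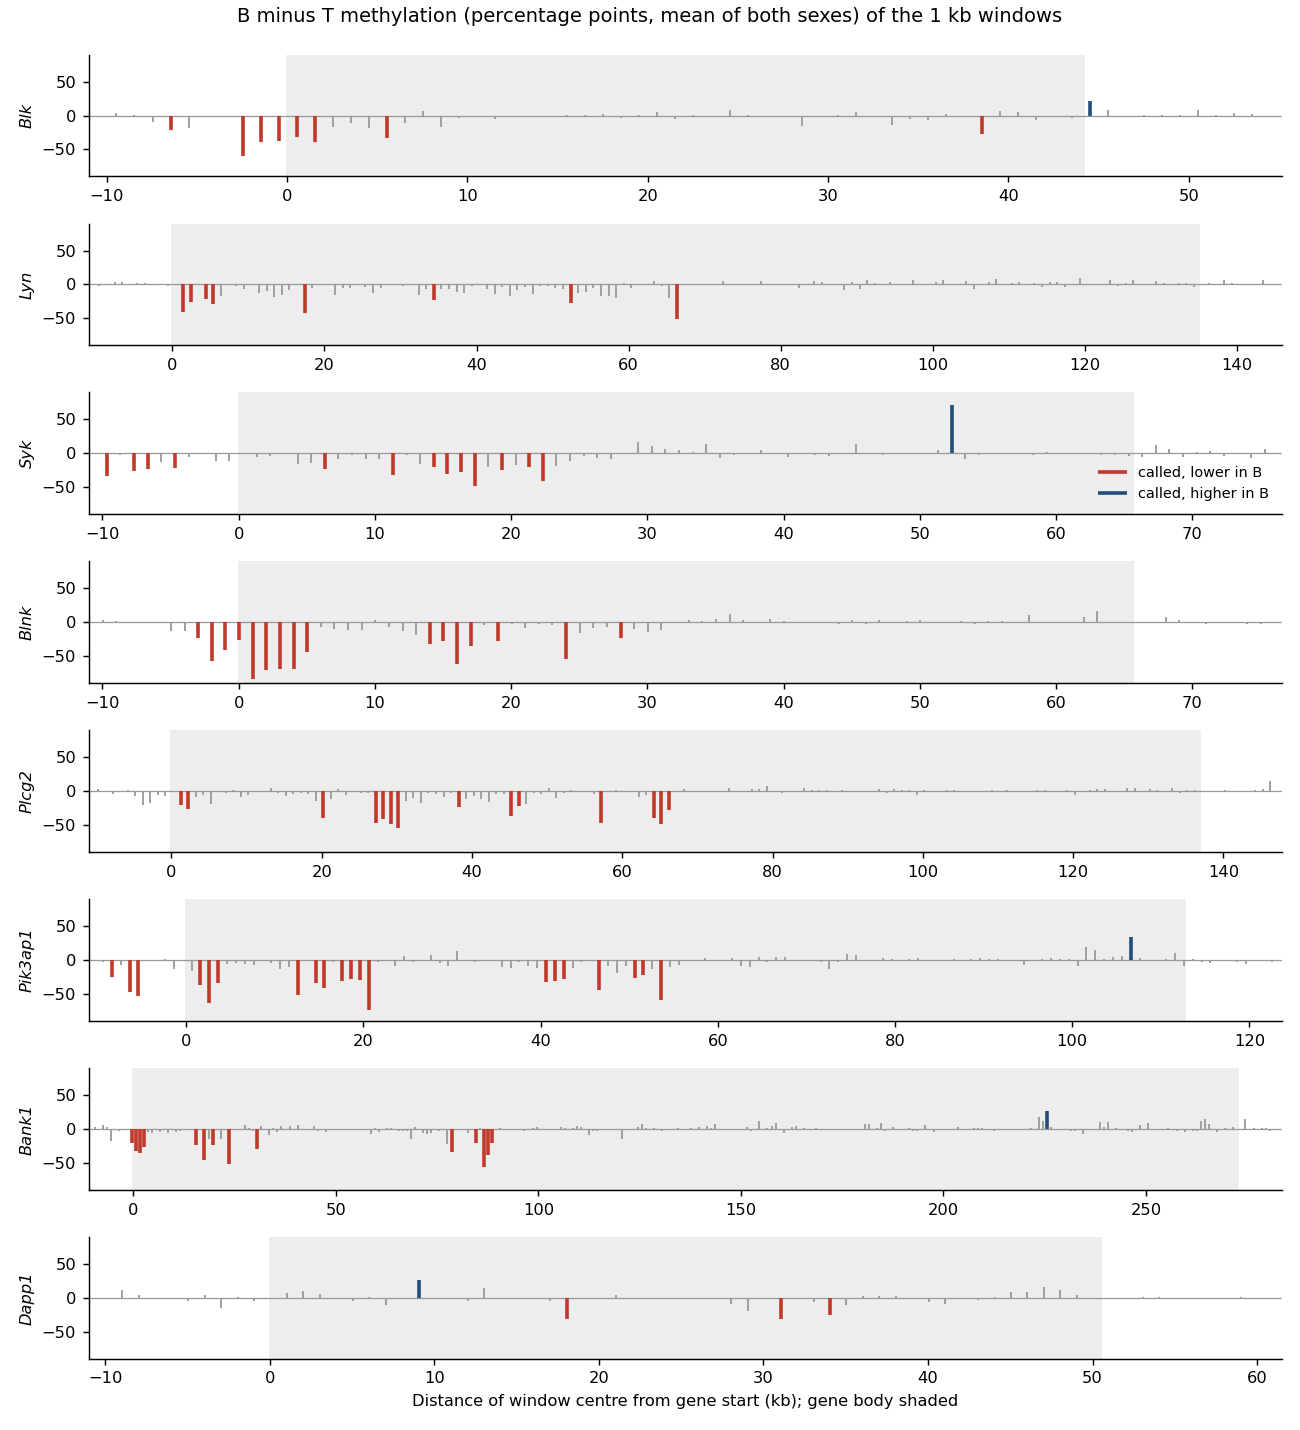
Mean B minus T difference in methylation (percentage points, y axis) of every tested 1 kb window of the 8 genes against the distance of its centre from the gene start (kb, x axis), with the gene body shaded. Red bars are windows called lower in B cells, blue bars windows called higher and grey bars windows not called. Except in Dapp1, most red bars within the bodies lie on the side of the gene start, and others lie before the starts of Blk, Syk, Blnk, Pik3ap1 and, with 1 bar, Bank1. None lies in a downstream flank.

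To show the sequence at which the difference was greatest, 1 stretch of 200 bases outside the exons of the gene was taken from the GRCm38 reference for each of the 8 genes, together with the 2 stretches that had the largest difference in the other direction. The measured CpGs are in capitals. They were picked for their values, as the stretch with the largest difference in the sex where it was smaller among those with at least 4 measured CpGs and 40 reads per file, so their values are a description and no test. Each reads 5′ to 3′ on the strand of its gene.
Blnk, 0.94 kb after the start, lower in B cells: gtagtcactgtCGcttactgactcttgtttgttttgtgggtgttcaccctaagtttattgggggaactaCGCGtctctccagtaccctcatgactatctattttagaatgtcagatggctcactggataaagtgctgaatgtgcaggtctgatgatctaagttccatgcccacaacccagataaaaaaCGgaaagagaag
Pik3ap1, 6.04 kb before the start, lower in B cells: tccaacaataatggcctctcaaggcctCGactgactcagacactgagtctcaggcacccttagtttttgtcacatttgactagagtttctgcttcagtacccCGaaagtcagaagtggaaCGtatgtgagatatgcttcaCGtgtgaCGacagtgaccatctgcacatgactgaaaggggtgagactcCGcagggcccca
Plcg2, 64.67 kb after the start, lower in B cells: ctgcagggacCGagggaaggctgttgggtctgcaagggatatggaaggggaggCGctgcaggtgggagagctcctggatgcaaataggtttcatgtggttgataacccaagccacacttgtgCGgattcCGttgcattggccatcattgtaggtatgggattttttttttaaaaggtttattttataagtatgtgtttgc
Lyn, 1.49 kb after the start, lower in B cells: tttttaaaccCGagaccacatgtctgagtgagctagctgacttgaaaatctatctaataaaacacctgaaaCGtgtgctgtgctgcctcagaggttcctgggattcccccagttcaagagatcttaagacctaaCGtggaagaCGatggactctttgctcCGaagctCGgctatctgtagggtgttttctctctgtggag
Syk, 6.9 kb before the start, lower in B cells: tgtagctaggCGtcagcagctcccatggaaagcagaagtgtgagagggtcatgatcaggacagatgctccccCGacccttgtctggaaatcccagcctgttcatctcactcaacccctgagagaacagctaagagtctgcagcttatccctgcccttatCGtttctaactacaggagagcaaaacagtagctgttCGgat
Blk, 6.47 kb after the start, lower in B cells: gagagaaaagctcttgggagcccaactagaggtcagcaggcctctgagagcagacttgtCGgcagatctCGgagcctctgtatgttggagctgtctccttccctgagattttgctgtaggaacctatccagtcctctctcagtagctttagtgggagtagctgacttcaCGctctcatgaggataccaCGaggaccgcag
Bank1, 3.23 kb after the start, lower in B cells: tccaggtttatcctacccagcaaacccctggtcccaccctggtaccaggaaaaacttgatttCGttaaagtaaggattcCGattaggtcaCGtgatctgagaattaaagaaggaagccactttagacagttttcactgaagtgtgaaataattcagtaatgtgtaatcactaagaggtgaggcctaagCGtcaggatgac
Dapp1, 31.14 kb after the start, lower in B cells: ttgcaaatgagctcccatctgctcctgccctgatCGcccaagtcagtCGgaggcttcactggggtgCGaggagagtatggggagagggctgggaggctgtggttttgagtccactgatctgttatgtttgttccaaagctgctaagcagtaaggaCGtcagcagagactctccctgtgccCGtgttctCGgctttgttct
Syk, 51.94 kb after the start, higher in B cells: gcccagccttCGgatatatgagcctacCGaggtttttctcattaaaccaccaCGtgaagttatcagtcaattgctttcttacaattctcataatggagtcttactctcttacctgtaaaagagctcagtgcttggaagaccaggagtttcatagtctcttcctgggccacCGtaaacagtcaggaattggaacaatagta
Pik3ap1, 106.67 kb after the start, higher in B cells: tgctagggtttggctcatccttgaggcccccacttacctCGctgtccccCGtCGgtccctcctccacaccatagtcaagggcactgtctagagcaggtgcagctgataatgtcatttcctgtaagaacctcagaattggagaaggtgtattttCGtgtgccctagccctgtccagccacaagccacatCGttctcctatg

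The Blnk stretch (chr19:40993499-40993698, minus strand, centred in the promoter and reaching past its edge into the gene) was at 0%, 93.2%, 2.08% and 96.8% over 4 CpGs and 48 to 94 reads per file. Its level of 0% in the female B cell file rests on 51 reads. The 6 CpGs of the Pik3ap1 stretch before the gene (chr19:41391041-41391240, minus strand) were at 0%, 92.8%, 0% and 92.0%, with no methylated read among 86 and 73 reads of the B cell files. Here every CpG read as unmethylated in both B cell files and as 75.0% to 100% methylated in the T cell files. In Plcg2 the stretch (chr8:117562858-117563057, plus strand, intron 5) was at 7.84%, 87.1%, 2.67% and 83.1%. The Lyn stretch (chr4:3679510-3679709, plus strand) was at 3.90%, 71.5%, 1.49% and 64.5%. It lies in intron 1 of Lyn and within an exon of Gm26857, a long non-coding RNA annotated on the other strand. The flank stretch of Syk (chr13:52576171-52576370, plus strand) was at 20.8%, 84.3%, 31.3% and 75.0%, and the Blk stretch (chr14:63410465-63410664, minus strand, intron 1) at 16.2%, 76.6%, 25.8% and 75.0%. The Bank1 stretch (chr3:136322740-136322939, minus strand, intron 1) was at 41.3%, 98.4%, 42.4% and 98.0%, so T cells were close to full methylation and B cells in between. In Dapp1 the stretch (chr3:137950310-137950509, minus strand, intron 6) was at 23.9%, 81.8%, 32.3% and 75.5%. The opposite order was seen in intron 9 of Syk (chr13:52635015-52635214, plus strand), at 98.2%, 25.0%, 92.9% and 28.8%, and in intron 16 of Pik3ap1 (chr19:41278331-41278530, minus strand), at 86.5%, 2.38%, 70.7% and 16.2%.

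Promoters, taken as the gene start with 1 kb to either side, split the 8 genes. Those of Blk and Blnk were called lower in B cells (2 of 8), against 0.432% of the 21082 promoters tested. Those of Lyn, Syk, Plcg2 and Pik3ap1 were below 10% in all 4 files. The 3 promoters with the largest mean differences, those of Blk, Blnk and Bank1 (the last not called), hold 19, 33 and 14 CpGs in the reference, against 97 in Lyn, 93 in Syk, 85 in Plcg2, 65 in Pik3ap1 and 46 in Dapp1 and a median of 62 over all coding genes. Smaller differences with an adjusted p under 0.05 were found in Syk and Pik3ap1. The share of all promoters with such an adjusted p is not given here, so neither is shown to stand out by it.

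**Figure D2:**
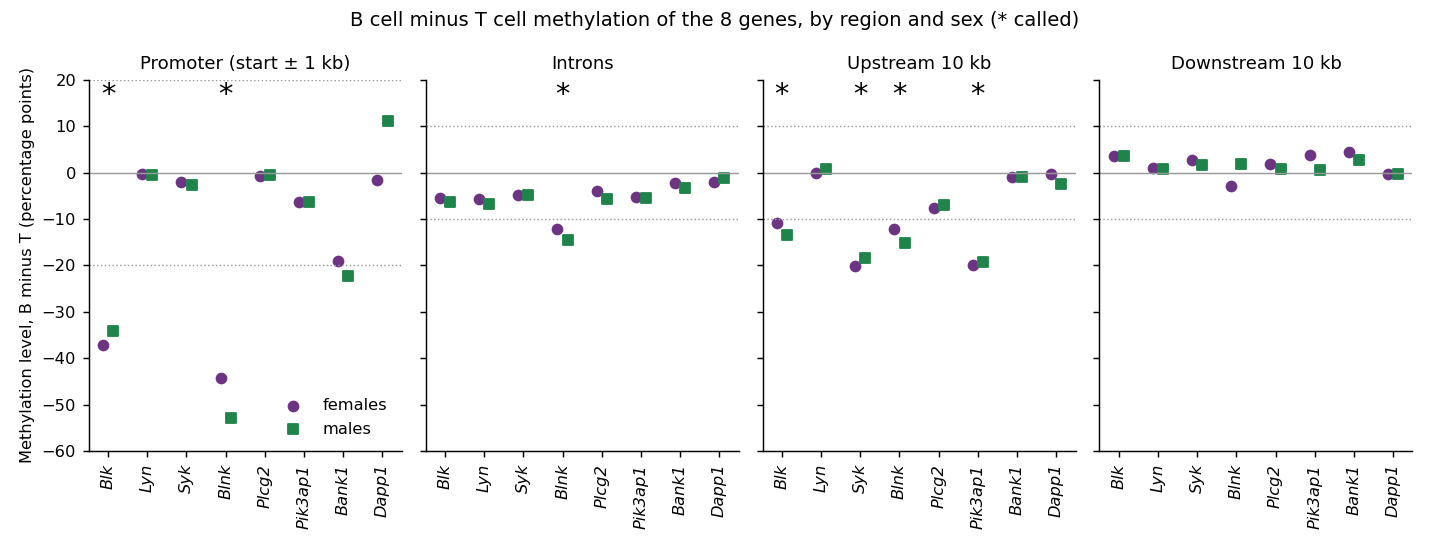
B minus T difference in methylation (percentage points, y axis) of the 8 genes (x axis) at promoters, introns, upstream and downstream flanks, with circles for females and squares for males. Dotted lines mark the thresholds of 20 points (promoters) and 10 points (other regions), and a star marks a called region. Both markers of Blk and Blnk and the male marker of Bank1 stand below the line at the promoter, where Bank1 was not called (adjusted p = 0.0544), those of Blnk alone in introns, and those of Blk, Syk, Blnk and Pik3ap1 in the upstream flank.

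Introns were lower in B cells in all 8 genes and in both sexes, by 1.64 points (Dapp1) to 13.4 points (Blnk) on average, where the median over the introns of all 18894 genes tested was a difference of 0.15 points. The adjusted p was under 0.05 for 7 of the 8, and only the introns of Blnk also passed 10 points, a call made for 1.11% of all genes. The share of all genes with such an adjusted p is not given here, so the 7 are not shown to stand out by it. Small differences in either direction could reach it, as in the introns of Itpr1, 1.06 points higher in B cells (adjusted p = 1.39e-05, quasi-binomial model). Upstream flanks, which cover the 10 kb before the start without the promoter, were called lower for Blk, Syk, Blnk and Pik3ap1 (4 of 8, against 1.17% of 21510 genes). No downstream flank was called (0 of 8, against 1.01% of 21540). In downstream flanks 6 of the 8 differences were above 0 in both sexes, with means between -0.52 and 3.63 points and no adjusted p under 0.05 by the quasi-binomial test. The unadjusted p was under 0.05 for 2 of them, Blk (0.0116) and Bank1 (0.0211), and no call was made by limma or Fisher's exact test either. By the mean over CpGs, the downstream flanks of Plcg2 and Pik3ap1 were also below 0 (-0.11 and -0.23 points). How many downstream flanks of all genes were above 0 in both sexes is not given here. Other coding genes, Tm9sf3 and Lamtor3, reach into the spans of Pik3ap1 and Dapp1.

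Among the Src-family kinases, Blk (chr14:63372836-63417037, minus strand) had a promoter at 16.1% (95% Wilson interval 12.0 to 21.3), 53.1% (48.1 to 58.1), 20.1% (15.7 to 25.3) and 54.3% (48.6 to 59.9) over 16 CpGs. The B cell files lay below the T cell files without overlap, by 37.0 points in females and 34.2 in males (adjusted p = 0.000735, quasi-binomial model). Within the promoter the first 500 bp of the gene were at 0% in all 4 files, and the difference came from both sides of this block. The window before it was at 14.2%, 56.0%, 24.3% and 57.4% (adjusted p = 9.46e-15), and the CpGs from 500 to 1000 bp after the start were at 37.5%, 83.5%, 21.3% and 87.5%. A run of 5 neighbouring windows (chr14:63415001-63420000) was called, of which the window 2.46 kb before the start had the largest difference, at 35.0%, 94.0%, 37.4% and 99.2%. The 1 window of Blk that was higher in B cells spans the end of the gene, at 57.6%, 38.8%, 56.7% and 33.8% (adjusted p = 2.44e-05). The upstream flank as a whole was at 81.7%, 92.6%, 78.4% and 91.8% (adjusted p = 0.000794). With 500 bp instead of 1 kb to either side of the start, the promoter differed by 12.1 points and was no longer called. It was also not called in fits without any 1 of the 4 files, which left out the sex term as well.

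Lyn (chr4:3678115-3813122, plus strand), the kinase that acts both as an activator and through inhibitory receptors, had a promoter with little methylation in every file, at 4.59%, 4.85%, 4.18% and 4.74% over 96 CpGs. The files differed just beyond it. From 1 to 2 kb after the start the levels were 18.9%, 63.9%, 14.7% and 66.0%, so that the unmethylated block reached farther into intron 1 in B cells. Of its 130 windows 8 were lower in B cells and none was higher. The largest difference was 66.39 kb into the gene, in intron 4, at 30.8%, 82.0%, 31.6% and 82.1% over 3 CpGs (adjusted p = 2.65e-07). Its introns were at 83.7%, 89.3%, 83.0% and 89.8% (adjusted p = 3.45e-13), a difference under the 10-point threshold. The upstream flank was at 94.1%, 94.2%, 95.2% and 94.4%, and no window there was called.

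Syk (chr13:52583173-52648792, plus strand), the kinase that relays the receptor signal, likewise had a promoter close to 0% in all files as a whole, at 0.660%, 2.59%, 0.302% and 2.95%. Within it, the 3 CpGs from 500 to 1000 bp before the start were at 9.09%, 49.3%, 4.26% and 61.1% (47 to 73 reads per file). The upstream flank of Syk was at 67.9%, 88.1%, 67.8% and 86.1%, with both B cell files about 20.1 and 18.3 points below the T cell files (adjusted p = 0.000606). This came from the far part of the flank, since 5 to 10 kb before the start the levels were 62.6%, 86.3%, 63.7% and 83.9%. The flank of 5 kb instead of 10 kb differed by 7.28 points and was not called. A coding transcript, Syk-201, starts 13680 bp into the gene, and the 2 kb around this second start were at 17.2%, 34.7%, 16.6% and 34.9%. A run of 4 called windows (chr13:52597001-52601000) began just behind this start, and the one 17.33 kb into the gene was at 8.16%, 58.0%, 11.3% and 56.6% (adjusted p = 2.13e-11). In all, 13 of 84 windows were lower in B cells. The 1 window that was higher, 52.33 kb into the gene in intron 9, was at 93.1%, 13.1%, 79.6% and 16.7% over 9 CpGs, which was the largest difference above 0 in the 8 genes (adjusted p = 3.33e-42).

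The adaptor Blnk (chr19:40928927-40994535, minus strand) had the largest differences of the 8 genes at the promoter, in introns and in a single window. Its promoter was at 12.6% (9.86 to 15.9), 56.9% (53.1 to 60.5), 9.71% (7.66 to 12.2) and 62.5% (58.7 to 66.2) over 33 CpGs, and B cells were lower by 44.3 points in females and 52.8 in males (adjusted p = 1.24e-05). The promoter was not called when the male B cell file was left out, in a fit that left out the sex term as well. Its introns were at 77.8%, 89.9%, 75.6% and 90.2% (adjusted p = 1.98e-20), although limma on log2 ratios gave 0.07 for them. The difference was concentrated in 9 neighbouring windows around the start (chr19:40989001-40998000), which were all called. In T cells the first 500 bp of the gene were at 7.83% and 10.9% and the next 500 bp already at 87.1% and 92.0%. In B cells the low level went on, with 8.18% and 7.95% from 500 to 1000 bp, 7.91% and 11.7% from 1 to 2 kb and 28.3% and 27.4% from 2 to 5 kb, and returned to 85.8% and 85.0% between 5 and 10 kb. The window 1.03 kb after the start was at 7.27%, 89.7%, 6.34% and 91.5% (adjusted p = 6.21e-120), the largest difference of any window in the 8 genes. A second group of 4 called windows lay in the same intron (chr19:40977001-40981000), and the upstream flank was at 68.8%, 80.9%, 66.6% and 81.8% (adjusted p = 0.0014).

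Pik3ap1 (chr19:41272377-41385102, minus strand), the adaptor for phosphoinositide 3-kinase, had 20 of 129 windows lower in B cells, the highest number of the 8. Its promoter was at 1.82%, 8.18%, 1.69% and 8.05%, a difference of 6.36 points (adjusted p = 0.00257) that did not reach 20. The T cell level came from the edge of the unmethylated block, since 500 to 1000 bp after the start the levels were 2.90%, 32.3%, 2.26% and 37.5%. Beyond it, from 1 to 2 kb, they were 42.5%, 82.4%, 50.4% and 86.2%. The upstream flank was at 71.3%, 91.3%, 71.3% and 90.5% (adjusted p = 0.000128). This rested on the part 5 to 10 kb before the start, at 56.9%, 90.7%, 59.2% and 89.5%, while a flank of 5 kb differed by 3.09 points (adjusted p = 0.197). The window 53.6 kb after the start, in intron 3, was at 18.5%, 77.3%, 15.3% and 73.1% (adjusted p = 2.09e-37). The window higher in B cells, in intron 16, was at 91.3%, 57.1%, 87.4% and 52.6%.

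Bank1 (chr3:136053363-136326066, minus strand), the longest of the genes, had a promoter of intermediate level, at 26.8% (20.4 to 34.5), 45.9% (39.0 to 52.9), 27.4% (21.5 to 34.2) and 49.8% (43.3 to 56.3) over 13 CpGs. The B cell files lay below the T cell files in both sexes, by 19.0 and 22.4 points, but the adjusted p was 0.0544 and the promoter was not called. Fisher's exact test within each sex did call it (larger adjusted p = 0.00351), as did a span of 500 bp to either side (adjusted p = 0.00232) and a dispersion prior with a trend on reads (adjusted p = 0.00122). Both windows centred in the promoter were called, at 27.5%, 60.9%, 24.6% and 57.8% after the start and 6.94%, 26.5%, 11.3% and 32.7% before it. They do not match the promoter exactly, as they cover chr3:136325001-136327000 and the promoter is chr3:136325066-136327066. In the male B cell file the promoter level of 27.4% was above that of both windows, so CpGs outside them add to it. Of 206 windows 14 were lower in B cells. The window with the largest mean difference of both sexes, 86.57 kb into the gene in intron 5, was at 46.0%, 96.6%, 25.6% and 88.6%. The only called window of the 8 genes centred on an exon and higher in B cells was also in Bank1, 225.57 kb from the start, at 68.5%, 33.3%, 57.2% and 40.2%.

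Dapp1 (chr3:137931007-137981545, minus strand), the lipid-binding adaptor, had the smallest difference in introns and the lowest share of windows lower in B cells. Its promoter was at 31.0%, 32.7%, 41.5% and 30.5%, a difference of -1.68 points between the female files and 11.1 between the male files (adjusted p = 0.487). All 4 files had the same pattern, with 0% to 1.44% from 500 bp before to 1 kb after the start and 81.8% to 91.3% from 500 to 1000 bp before it. The mean over CpGs, which gives each CpG the same weight whatever its reads, differed by -2.12 points. Introns were at 74.2%, 76.3%, 74.6% and 75.9% (adjusted p = 0.0644). Of 71 windows 3 were lower in B cells, in introns 2, 6 and 7, and the window 31.04 kb after the start was at 47.9%, 85.7%, 55.8% and 80.9%. The window higher in B cells, in intron 1, was at 78.2%, 49.1%, 73.8% and 50.3%.

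Plcg2 (chr8:117498291-117635142, plus strand), the phospholipase that produces the second messengers for calcium release, had a promoter at 1.41%, 2.09%, 1.36% and 1.80%. As in Lyn and Pik3ap1, the T cell files rose sooner behind it, with levels of 2.92%, 34.7%, 4.71% and 38.9% from 1 to 2 kb after the start. All 14 windows called, of 155, were lower in B cells and lay in introns 1, 2 and 5. Within intron 2 a run of 4 windows (chr8:117525001-117529000) was called, of which the one 29.21 kb after the start was at 16.3%, 62.7%, 15.8% and 67.7% over 16 CpGs (adjusted p = 5.20e-60). The upstream flank was at 80.0%, 87.5%, 79.0% and 85.9%, under the 10-point threshold (adjusted p = 0.0101), whereas a flank of 5 kb differed by 15.6 points and was called (adjusted p = 1.28e-08).

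**Figure D3:**
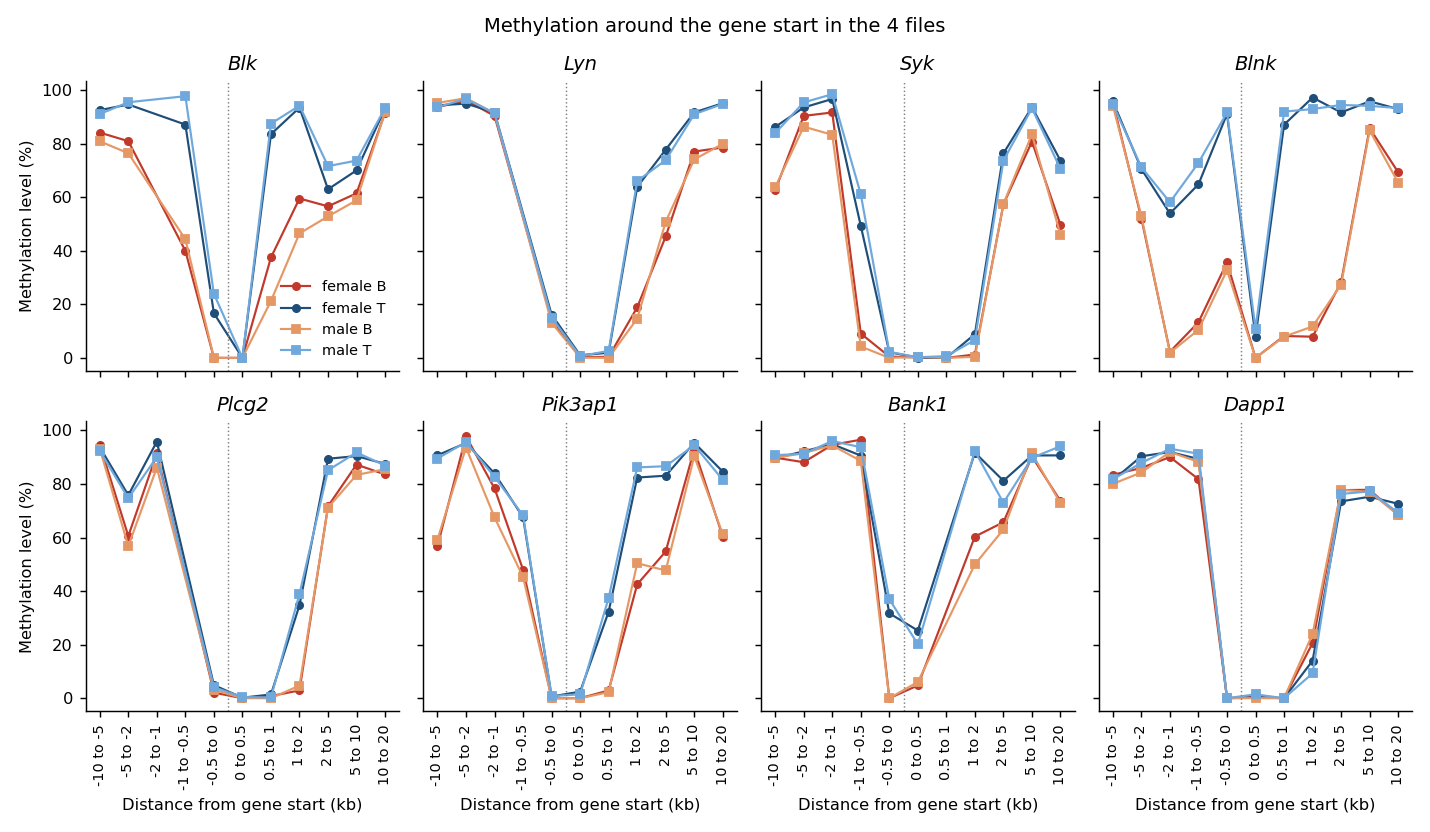
Methylation level (%, y axis) in bins of distance from the gene start (kb, x axis, bins of unequal width) in the 4 files, with B cells in red and orange and T cells in dark and light blue. The dotted line marks the start, lines connect neighbouring bins, and bins with fewer than 3 CpGs are left out. Lyn, Syk, Plcg2 and Pik3ap1 share an unmethylated start in all files, Blnk and Blk are lower in B cells on both sides of the start, and the 4 lines of Dapp1 lie close together.

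By place, the share of windows lower in B cells was 37.5% in promoters (6 of 16), 18.2% in upstream flanks (12 of 66), 10.5% in introns (76 of 724), 4.88% at exons (2 of 41) and 0% in downstream flanks (0 of 76). Over all coding genes these shares were 0.807%, 1.34%, 1.22%, 1.23% and 1.23%. Inside the gene bodies, 78 of the 387 windows between the start and the midpoint and 3 of the 386 between the midpoint and the end were lower in B cells (20.2% and 0.777%), a split that was chosen after the values were seen. Over all coding genes these shares were 1.31% and 1.11%. The 3 were 1 window of Blk and 2 of Dapp1. Of the 96, 59 lay within 20 kb of the start, where 223 windows were tested, a share of 26.5% against 1.37% over all coding genes. Ranked by the share of windows lower in B cells among the 6916 genes with at least 50 windows, Blnk was at place 7, Pik3ap1 at 24, Syk at 25, Blk at 45, Plcg2 at 121, Bank1 at 240, Lyn at 298 and Dapp1 at 625. No window lower in B cells was found in 49.3% of these genes.

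**Figure D4:**
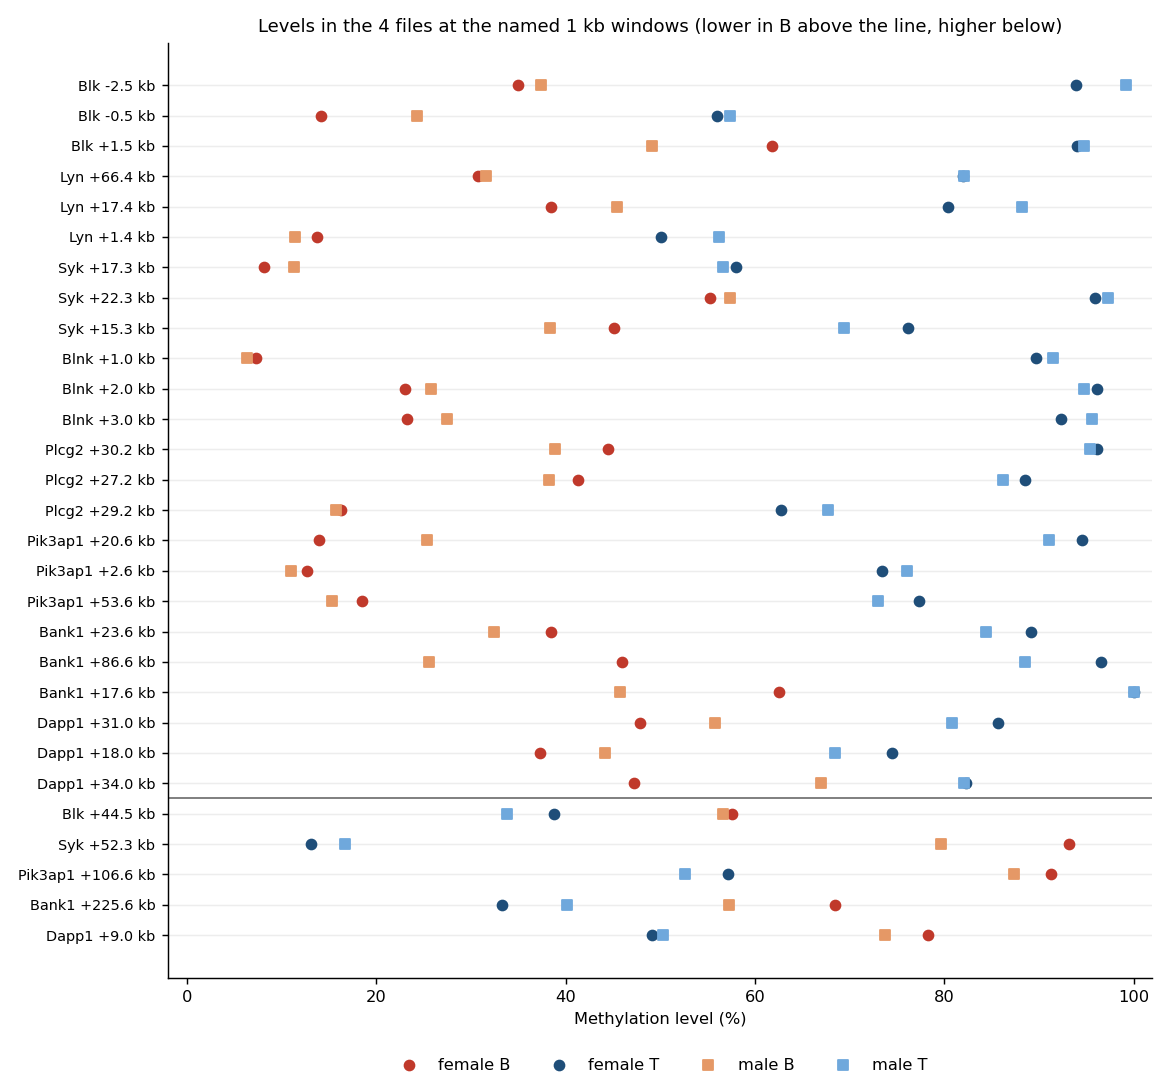
Methylation level (%, x axis) in each of the 4 files at the up to 3 windows per gene and direction with the largest difference in the sex where it was smaller, labelled by gene and distance from the gene start (y axis). Circles are females and squares males, B cells in red and orange, T cells in dark and light blue. B cell files lie left of T cell files in all windows above the line and right of them in all 5 windows below it, an order that the choice of these windows favours.

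The other genes of the pathway were counted from lists by role. Of the receptor and coreceptor genes (among them Cd79a, Cd79b, Cr2 and Cd81, with Ighm not tested), 33 of 155 windows were lower in B cells (21.3%) and 3 higher (1.94%). The promoters of Cd79a, with the levels given above, and Cd79b (8.19%, 35.9%, 9.91% and 45.8%) were called lower, and over the list the median promoter difference was -31.8 points, against 0.15 over all promoters. Among 26 further kinases, adaptors and effectors, 125 of 3028 windows were lower (4.13%, against 0.913% of all windows) and 96 higher (3.17%, against 1.16%), and 2 promoters were lower (against 0.432% of all promoters). They were those of Fgr, a Src-family kinase (20.5%, 43.2%, 18.6% and 42.3%), and Dok3, an adaptor that restrains the receptor (6.30%, 37.5%, 8.05% and 37.6%). The median promoter difference of these 26 was 0.31 points. Of 12 inhibitors, 50 of 749 windows were lower (6.68%) and 42 higher (5.61%), against 0.913% and 1.16% of all windows. The promoters of Cd22 (32.8%, 66.2%, 27.7% and 64.4%) and Siglecg (2.26%, 51.2%, 3.11% and 52.5%), both inhibitory receptors of B cells, were lower, and that of Cd5 (70.4%, 12.6%, 70.3% and 14.8%), a receptor of T cells and of some B cells, was higher, for a median of -2.68 points.

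The T cell counterparts went the other way. Of their 706 windows, 117 were higher in B cells (16.6%, against 1.16% of all windows) and 12 lower (1.70%, against 0.913%), and all 8 genes had more windows higher than lower. Of their promoters 4 of 8 were called higher, against 0.484% of all promoters, among them those of Zap70 (87.8%, 27.6%, 90.7% and 26.3%), Lck (72.1%, 19.2%, 67.0% and 16.9%) and Themis (85.8%, 0.699%, 82.3% and 0%). Zap70 and Lck are the kinases that stand beside Syk and Lyn in the T cell pathway. The value of 0% for Themis rests on 113 reads. Of the phospholipases, the introns of Plcg1, used by T cells, were at 79.0%, 66.7%, 79.7% and 66.3% and were called higher in B cells (adjusted p = 1.05e-14). Those of Plcg2 were at 85.4%, 89.4%, 84.1% and 89.8%, a smaller difference in the other direction that was not called.

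**Figure D5:**
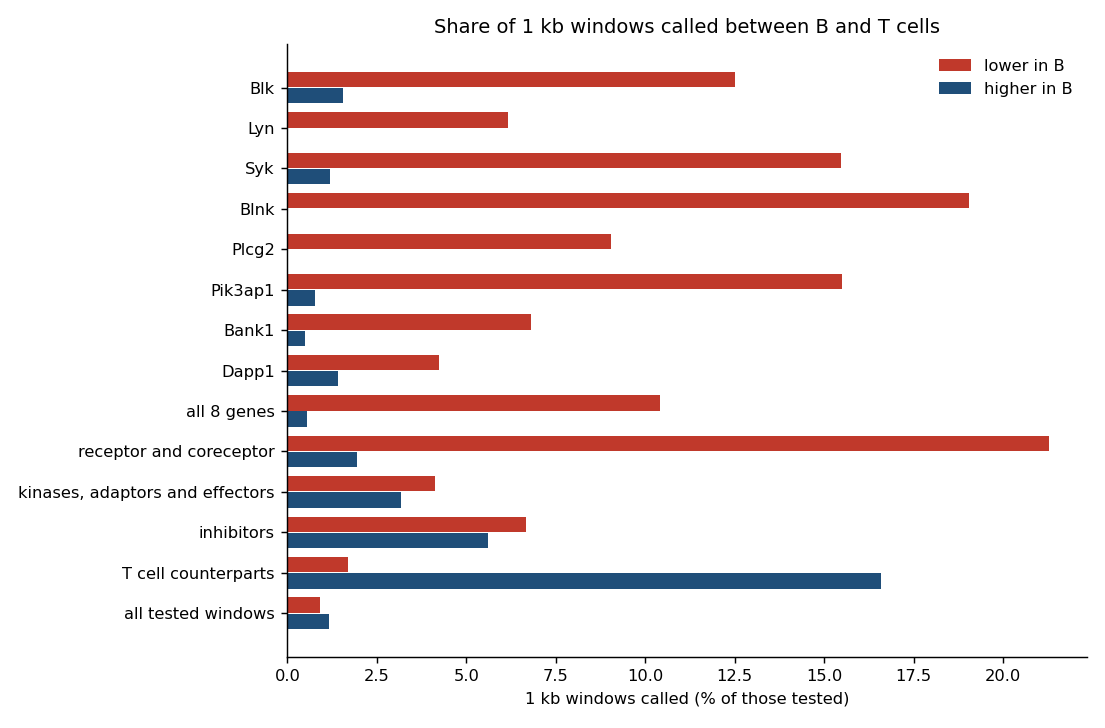
Share of tested 1 kb windows called lower (red) or higher (blue) in B cells (%, x axis) in each of the 8 genes, in all 8, in the other pathway lists, in the T cell counterparts and among all windows tested. The 8 genes together reach 10.4% lower, the T cell counterparts 16.6% higher, and all windows tested 0.913% lower and 1.16% higher.

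Motifs of factors known from B cells were counted as letters, on both strands. The octamer ATGCAAAT was in 9.38% of the 96 windows lower in B cells, in 5.96% of all 923 windows of the 8 genes, in 7.88% of all windows tested and in 8.66% of all 18418 windows lower in B cells. The EBF1 half-site pair TCCCNNGGG was in 16.7%, 13.98%, 9.79% and 25.6% of these sets, in the same order. For the PU.1 sequence GAGGAAGT the shares were 7.29%, 6.61%, 6.01% and 11.1%. Of the stretches printed above, only that of Plcg2 held one of these motifs, an octamer that begins at its base 78, where 1.59% of the central 200 bases of all windows hold one. These are descriptions of letters and not of bound factors.

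Sex was tested at the 1 kb windows, not at promoters, introns or flanks. None of the 923 windows was called between females and males, against 0.00103% of the 1950708 autosomal windows tested, and 47 of the 923 had an unadjusted p under 0.05 in the quasi-binomial model. No call was made by limma either, where 43 had an unadjusted p below 0.05, nor by Fisher's exact test within each cell type, where 3 had one in both cell types. Without any sex difference, a well-calibrated test gives an unadjusted p under 0.05 in a fraction of 0.05 of windows. Shares over all autosomal windows are not given here, so the 47 and 43 are not shown to stand out. The largest mean difference between the sexes was 14.2 points, in the Bank1 window of intron 5 named above, at 46.0% in females against 25.6% in males in B cells and 96.6% against 88.6% in T cells (adjusted p = 0.535).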

How the data were processed

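DNA methylation was measured in 8 samples with 4 deposited files, 1 for each group. Per the deposited files, each line gives a CpG position, its methylation level as a fraction and its coverage as a count of reads. Every deposited entry lay on the plus strand and had 5 or more reads. The submitters' processing notes name mm10, Trim Galore, FastQC and Bismark 0.13.1, with no order or settings. Duplicate removal and conversion rates are not given in the sources used here, and duplicates that were kept would make the intervals too narrow. Conversion that differed between files would shift levels. Per-sample columns left unused numbered 0.

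Methylated reads were taken as the nearest whole number to fraction times reads. The deposited fraction, given to 3 decimals, was within 0.00101 of that number over the reads in 100% of entries, which says nothing for the 1800 to 2041 entries per file with more than 500 reads. All 18714703 CpGs covered in every file lay on a CG of GRCm38. Reads were summed over promoters (start with 1 kb to either side), introns (gene body without exons and promoter), flanks of 10 kb and 1 kb windows with at least 3 CpGs. A window belonged to a gene if its centre lay in the gene or within 10 kb of it, and introns were numbered as gaps between merged annotated exons. The quasi-binomial model with cell type and sex left 1 residual degree of freedom. Its dispersion was squeezed towards a prior from limma 3.58.1 (R 4.3.3), estimated from features with at least 5 expected methylated and unmethylated reads in every file, a rule taken over from earlier work on these files. Fitted log-odds were bounded at 14, which is reached where a level is 0% or 100%. For windows the prior degrees of freedom were infinite, so their p-values rest on an average spread (dispersion 1.31) and very small ones overstate the certainty for a single window. Intervals are 95% Wilson intervals and cover counting error only. The model was also run on simulated data, and the outcome is not given here.

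The genes and lists were chosen with earlier results of these data known. Named windows were, per gene, up to 3 called windows in each direction with the largest difference in the sex where it was smaller, with promoters, introns and flanks given for all 8 genes and other pathway genes named where their promoter was called, except for some that are not reported here. Windows outside this rule that are named as runs, promoter windows or bins were chosen after their values were seen. The Fisher and limma tests (pseudocount 1), other priors, spans, thresholds and coverage minimums, and fits without each file were alternatives. Fits without a file also left out the sex term, and their difference was the mean level of the B cell files minus that of the T cell files. A changed count in them can therefore come from the file or from the changed model.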

Additional observations from a re-analysis of the deposited data

Results flagged for a closer look

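Differences with opposite signs in females and males were looked at again, although the sex difference itself was not tested for these regions. The Dapp1 promoter had B minus T of -1.68 points in females and 11.1 points in males. The male value came with the male B cell file (41.5%, against 30.5% to 32.7% in the other files), although its level did not stand apart in any bin of the promoter, where the 4 files gave 81.8%, 89.4%, 88.3% and 91.3% from 500 to 1000 bp before the start (176, 310, 367 and 265 reads) and 0.562%, 0.311%, 0% and 1.44% in the first 500 bp. The more methylated of these bins held 367 of 780 promoter reads in the male B cell file. In the female B, female T and male T cell files it held 176 of 468, 310 of 851 and 265 of 811. The downstream flank of Blnk had -2.86 points in females and 1.82 in males. The upstream flank of Lyn had -0.11 points in females and 0.86 in males.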

How the results depend on the processing

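Over the 61 results for single regions and windows, 841 of 855 values under alternatives kept their direction and 753 also kept their side of the threshold, while 80 lost and 8 gained a call. Alternatives that change only the test, its prior or terms, or the threshold leave the difference itself as it was, so they keep the direction by construction. Named windows were also picked for a large difference of the same sign in both sexes. Direction kept in 841 values is therefore no measure of stability. Of the 8 promoters, 0 to 1 were called without 1 of the files. Introns called went from 1 to 0 with limma, to 4 at a threshold of 5 points and to 0 at 20 points, and upstream flanks from 4 to 0 at 20 points. Windows called went from 101 to 31 with the prior from all features, a count that is not stable, since it was 0 when the fitted log-odds were bounded at 15 instead of 14 (added after the data were seen). They went to 53 with limma, 165 of 1374 with windows of 500 bp, 49 of 516 with windows of 2 kb, 178 at 10 points and 60 at 30 points, and lay between 97 and 104 without 1 of the files. The cause was not tested, beyond the smaller or larger threshold and window. None of the downstream flanks was called under any alternative run. The shares of all features called under each alternative are not given here. These counts therefore do not say how far the 8 genes differ from other genes under them.

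None of the differences that changed sign was called. The Dapp1 promoter was between -0.58 (without the male B cell file) and 9.98 points (without the female B cell file) when 1 file was left out, and -2.12 by the mean over CpGs and -0.48 with 500 bp to either side. The Lyn promoter was at 0.19 points with 2 kb before to 500 bp after the start, its upstream flank at -0.41 with 10 or more reads per CpG and between -0.19 (without the male B cell file) and 0.93 (without the female B cell file) with 1 file left out, and its downstream flank at -0.32 with 10 or more reads. The Blnk downstream flank was between -1.95 (without the male T cell file) and 0.92 points (without the female T cell file) with 1 file left out, 0.39 without the female B cell file, and 0.43 with a flank of 5 kb. The Plcg2 downstream flank was at -0.11 by the mean over CpGs. The Pik3ap1 downstream flank was at -0.23 by the mean over CpGs, -0.48 with a flank of 5 kb and -2.34 without CpGs in other coding genes.

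The prior with a trend on reads was added after the data were seen and called 3 promoters, with Bank1 as the third. No paired analysis was possible because the groups share no replicate number and each has 1 file. With 1 file per group, the spread between pools of one kind is unknown, and the called windows rest on as few as 26 reads in a file.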
